A study of Mus musculus with 2 samples.

Results

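The NADPH-producing enzymes are described here as 10 genes, G6pdx, Pgd, H6pd, Me1, Me2, Me3, Idh1, Idh2, Mthfd1 and Aldh1l1, out of 55536 annotated genes in the gene tables. They are listed by name and role, with no threshold on a measured value, and each symbol was tied to its gene identifier through the transcript annotation. The tissue was the adrenal gland of female B6CASTF1/J mice, F1 hybrids of B6 and CAST parents aged 25 days, and RNA was measured by total RNA sequencing. There were 2 libraries in 1 group, called replicate 1 and replicate 2 after their biological replicate numbers, so only these libraries could be set against each other. The tissue descriptions name separate animals, but the donor field and the library description are the same for both libraries. Each SD below is thus a spread over these libraries alone and may be technical.

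NADPH is the reduced form of the cofactor NADP, and cells use it to drive reductive synthesis and to recycle antioxidants. In the adrenal cortex it feeds electrons through ferredoxin reductase to the mitochondrial steroid hydroxylases and through cytochrome P450 reductase to the microsomal ones, and it also supports cholesterol and fatty acid synthesis. It is remade by dehydrogenases that oxidize glucose 6-phosphate, malate, isocitrate or folate-bound carbon units, each in its own compartment, and does not freely cross the inner mitochondrial membrane.

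Sequences are shown for the places where assignment of reads mattered or where a member stood out. Idh1 has alternative first exons, and the quantifications disagreed on which was used, so the stretch upstream of each start is given. The stretch upstream of Me1 is given because Me1 had the highest level. Each is from the RefSeq promoter windows (mouse build GRCm38, the build of mm10), read 5′ to 3′ on the strand of the gene and ended before the first annotated exon. Capitals mark GGGCGG or its reverse complement CCGCCC, the GC box letters.
Idh1, upstream of the upstream start, chr1:65186501-65186682, minus strand: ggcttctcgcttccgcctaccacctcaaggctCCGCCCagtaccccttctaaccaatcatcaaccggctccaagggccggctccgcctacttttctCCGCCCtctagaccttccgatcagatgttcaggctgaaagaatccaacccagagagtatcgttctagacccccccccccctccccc
Idh1, upstream of the downstream start, chr1:65179182-65179392, minus strand: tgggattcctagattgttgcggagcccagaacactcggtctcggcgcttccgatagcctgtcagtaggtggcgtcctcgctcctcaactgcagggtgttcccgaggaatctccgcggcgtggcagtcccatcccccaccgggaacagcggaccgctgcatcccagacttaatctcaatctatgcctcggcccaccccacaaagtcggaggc
Me1, upstream of its main start, chr9:86695954-86696164, minus strand: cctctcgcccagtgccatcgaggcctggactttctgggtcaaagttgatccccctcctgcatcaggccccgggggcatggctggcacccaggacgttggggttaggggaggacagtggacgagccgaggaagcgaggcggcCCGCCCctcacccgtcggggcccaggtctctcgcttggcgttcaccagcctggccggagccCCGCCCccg
The printed stretch before the upstream start of Idh1 held 2 matches and that of Me1 held 2, while that before the downstream start of Idh1 held 0. Within the full 250 bases before the RefSeq start, the downstream start of Idh1 had 1 match, and Me1 had 3.

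The table of promoter windows held 12 windows for 9 of the members and none for Me2. Motifs were searched on both strands in the 250 bases before each RefSeq start, overlapping matches allowed. GGGCGG occurred in 8 of the 12 member windows (66.7%) and in 32.7% of all 32851 windows. CCAAT occurred in 7 of the 12 (58.3%) and in 33.8% of all windows. TGACNNNGC, the core letters of the antioxidant response element, occurred in 1 of the 12 (8.33%) and in 10.2% of all windows. That match was in G6pdx, where GCTCAGTCA lay from 57 to 49 bases before the RefSeq start and inside the first exon of the transcript G6pdx-201. The GC content of the member windows ran from 38.8% (H6pd) to 72.0% (Me1), with a median over all windows of 52.4%. The windows set beside the members were not matched for GC content, and Pgd, Me1 and Idh1 each entered with more than 1 window. Such matches describe letters only and are not evidence of binding.

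G6pdx also needed a check of its reads, because mice carry G6pd2, an intronless autosomal copy of this X-linked gene. G6pd2 lies on chromosome 5 (61808816 to 61811163, plus strand, mm10). Its coding sequence of 1539 bases was 94.4% identical to the 1545 bases of G6pdx, with 80 mismatched bases and 6 gap positions in the alignment. The longest stretch without a difference was 105 bases. The first 60 coding bases of both genes are shown with the differing bases in capitals.
G6pdx: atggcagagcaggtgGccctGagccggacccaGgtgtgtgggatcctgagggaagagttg
G6pd2: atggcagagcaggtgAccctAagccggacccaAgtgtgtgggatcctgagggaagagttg
These 60 bases differed at 3 positions. G6pd2 received 0 counts in replicate 1 and 1 count in replicate 2, at or under the floor of 3 counts, and the second quantification gave it 6.04 and 8.05 counts. G6pdx itself received 1399 and 3734 counts.

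The libraries differed in how much of their depth reached coding genes. Replicate 1 held 19366343 expected counts and replicate 2 held 33728646. Of these, 36.3% and 66.1% fell on protein-coding genes of the nucleus, leaving out Lars2. The members received 32585 and 99978 counts. Deposited TPM, an abundance corrected for gene length, sums to 1000000 over all RNA classes, of which coding genes held 206815 and 338304. Coding TPM, which rescales the same 22014 coding genes to that sum, is therefore also given for some genes and drawn for every member below. A pair of deposited TPM values should not be read as a difference between the libraries. Cortical markers matched the labelled tissue, with all 6 above 1 TPM in both libraries, led by Hsd3b1 and Star. So did chromaffin markers, with 6 of 6, led by Chgb and Chga. In bulk tissue, fewer cells of a type and less RNA per cell cannot be told apart.

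All 10 members were at or above 1 TPM, and also above 5 TPM, in both libraries. Levels spanned from Me1 to Me3, whose TPM differed by 71.8 times in replicate 1 and 80.6 times in replicate 2. The order by TPM was Me1, Idh1, Pgd, Aldh1l1, Idh2, G6pdx, H6pd, Mthfd1, Me2 and Me3 in replicate 1, and in replicate 2 only G6pdx and H6pd changed places. Mean TPM was higher in the second quantification for all 10 members, by 1.41 to 1.88 times, while mean coding TPM was 0.85 to 1.11 times that of the first. On the coding TPM scale the range of G6pdx (140 to 166) overlapped those of Idh2 (148 to 175) and H6pd (129 to 145), so G6pdx did not differ from either neighbour beyond the spread. In the first quantification no other neighbours in the order overlapped on that scale.

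**Figure D1:**
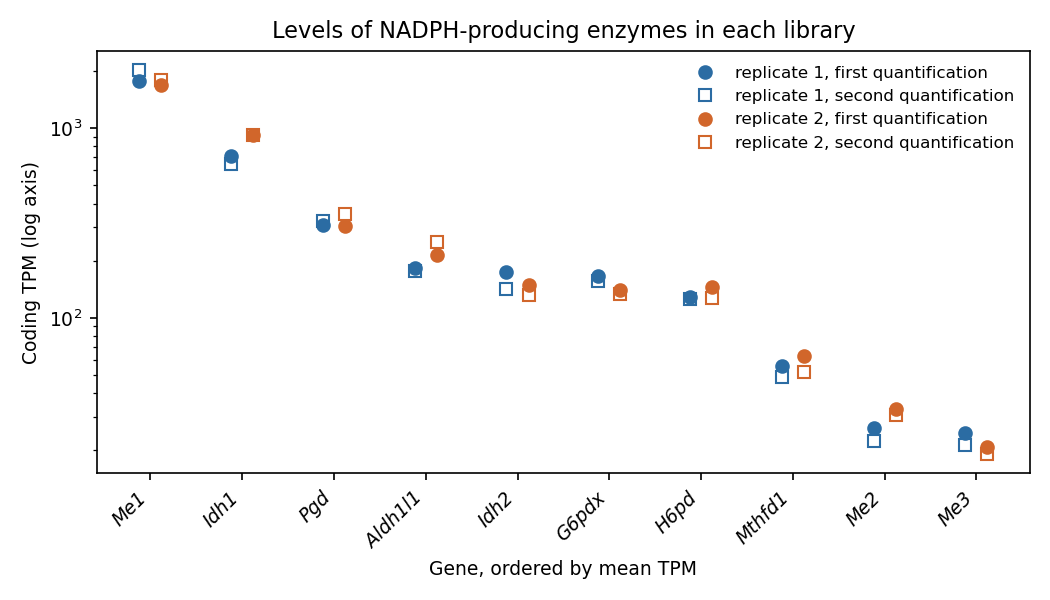
Coding TPM (log axis) of each enzyme gene in replicate 1 (blue) and replicate 2 (orange), from the first quantification (filled circles) and the second (open squares). Me1 lies at 1767 and 1680 in the first quantification, Me3 at 24.6 and 20.8, and the values of G6pdx overlap those of Idh2 and of H6pd.

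Among the malic enzymes, which oxidize malate to pyruvate, the cytosolic Me1 dominated. Me1 (chromosome 9, 86581371 to 86695953, minus strand) had a level of 366 TPM in the first library and 568 TPM in the second (467 ± 143, SD, n = 2), and the second quantification gave a mean of 850 TPM. In coding TPM it was at 1767 and 1680, and it ranked number 35 and number 33 among the 22014 coding genes. The TPM of Me1 lay just above the interval that its own quantifier gave in each library, 347 to 358 and 548 to 565, whose level the file does not state. The mitochondrial Me2, which can use either NAD or NADP, was at 5.43 and 11.2 TPM (8.32 ± 4.09). Me1 exceeded Me2 by 67.3 and 50.6 times. The mitochondrial Me3 (chromosome 7, 89632392 to 89854359, plus strand) was at 5.09 and 7.05 TPM (6.07 ± 1.39). Me2 exceeded Me3 by 1.07 times in replicate 1 and 1.59 times in replicate 2.

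The level of Me3 was placed mostly on transcripts that are not of the protein-coding type. Of its 7 annotated transcripts only Me3-202 is of the protein-coding type. That transcript held 2.75% and 1.13% of Me3 TPM in the first quantification, and 5.8% and 5.18% in the second. Me3-201, a processed transcript that covers 55.4% of the coding bases of Me3-202, towards its 3′ end, held 54% and 53.2%. Me3-203, which retains an intron and covers 76.2% of the coding bases, held 34.6% and 33.6%. The second quantification gave Me3-201 52.4% and 52.2%, so both quantifications placed it first. Me3-201 shares 1071 of its 1130 bases with Me3-202, so reads from their common exons had to be divided, and Me3 had only 121 and 303 counts. For Me1, by contrast, the protein-coding Me1-201 led in every case. It held 99.2% and 89.2% in the first quantification but 65.5% and 70.7% in the second, which placed 33.9% and 29% on the processed transcript Me1-204.

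**Figure D2:**
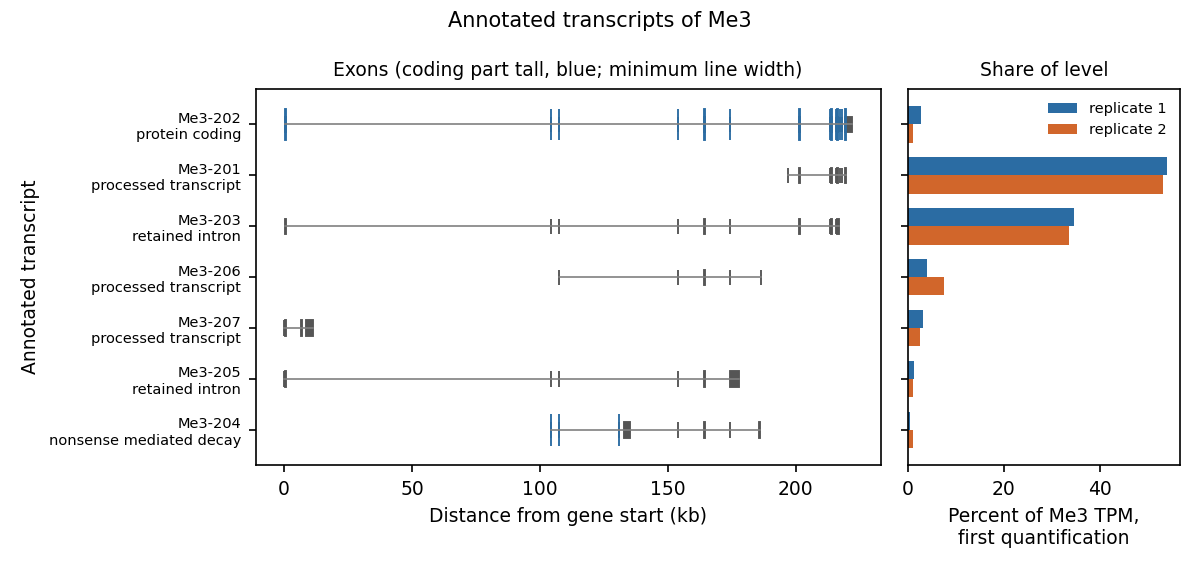
Annotated transcripts of Me3 by distance from the gene start in kb (left; bars are exons drawn with a minimum width, tall blue bars coding parts) and the percent of Me3 TPM on each in both libraries, first quantification (right). Me3-201 holds 54% and 53.2%, while the protein-coding Me3-202 holds 2.75% and 1.13%.

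The isocitrate dehydrogenases, which oxidize isocitrate to 2-oxoglutarate, were also led by their cytosolic form. Idh1 (chromosome 1, 65158616 to 65186500, minus strand), which acts in the cytosol and peroxisomes, had 147 TPM in replicate 1 and 311 TPM in replicate 2 (229 ± 116). In coding TPM it was at 709 and 920, with rank 175 and rank 99 among coding genes. The mitochondrial Idh2 (chromosome 7, 80094846 to 80115392, minus strand) had 36.3 and 50 TPM (43.2 ± 9.71). Idh1 exceeded Idh2 by 4.04 and 6.22 times. Me1 exceeded Idh1 by 2.49 and 1.83 times, which shows the same order in both libraries with a different distance. In replicate 1, 20.8% of the TPM of Idh2 was placed on the short retained-intron transcript Idh2-206, and in replicate 2 it was listed at 0. The protein-coding Idh2-201 held 74.3% and 92.5%.

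For Idh1 the quantifications placed the start of transcription at different exons. The upstream start lies at 65186479 (Idh1-203 starts there) and the downstream start at 65179181 (Idh1-201). The first quantification placed 88.6% and 85.1% of Idh1 TPM on the downstream start. The second placed 90.2% and 96.6% on the 5 transcripts with an upstream start, led by Idh1-203 at 70.9% and 71.5%. Idh1-201 and Idh1-203 share 2108 bases, all 1242 coding bases among them, and have 194 and 175 bases of their own. For this pair the disagreement concerns the start and not the coding sequence. Short transcripts of Idh1 were also divided differently. The first quantification placed 11.1% and 14.2% on Idh1-202, which has 499 bases, where the second gave 0. The second placed 15.2% in replicate 1 on an upstream-start transcript of 756 bases, and 12.2% in replicate 2 on another of 844 bases. The gene level of Idh1 was close in both quantifications (709 and 648 coding TPM in replicate 1, 920 and 915 in replicate 2). Both upstream stretches are printed above, and no data here measure the start directly.

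**Figure D3:**
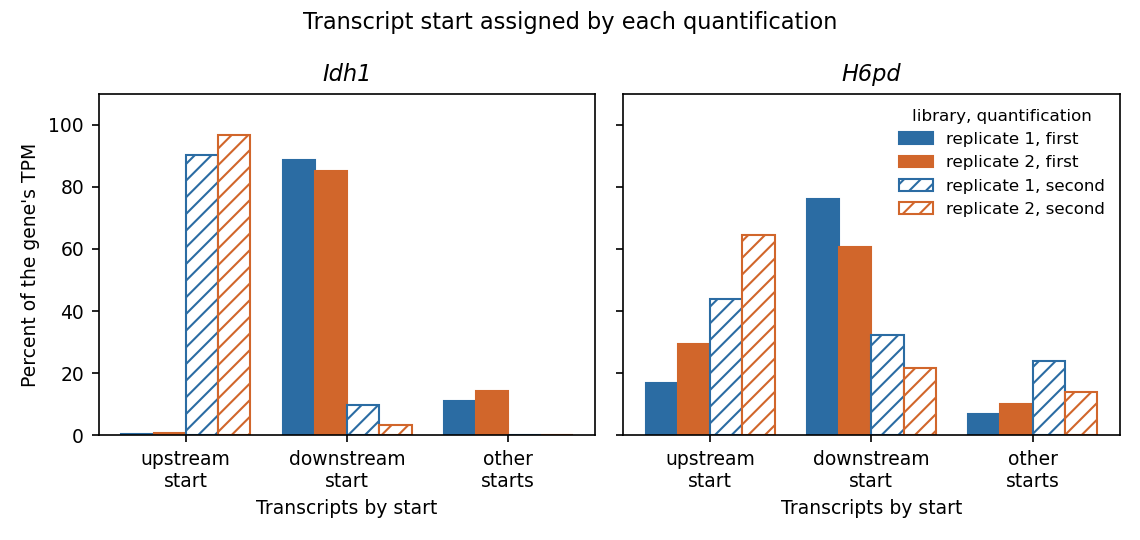
Percent of the TPM of Idh1 (left) and H6pd (right) on transcripts grouped by start, for both libraries and quantifications. For Idh1 the first quantification (filled) places 88.6% and 85.1% on the downstream start, and the second (hatched) 90.2% and 96.6% on the upstream start.

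The pentose phosphate pathway makes NADPH in consecutive oxidations of glucose 6-phosphate and 6-phosphogluconate. G6pdx (chromosome X, 74409483 to 74429194, minus strand), the enzyme of the first and rate-limiting oxidation, was at 34.3 and 47.3 TPM (40.8 ± 9.22). Pgd (chromosome 4, 149149991 to 149166771, minus strand), which carries out the later oxidation, was at 63.7 and 103 TPM (83.3 ± 27.7). Pgd exceeded G6pdx by 1.86 and 2.18 times. Relative to its level Pgd had the closest values of all members in coding TPM, 308 and 304, while the second quantification gave it 322 and 353. G6pdx shares 418 exon bases with Ikbkg on the opposite strand, which had 664 and 2553 counts. The kit was directional per the labels, and whether the counting used strand is not given in the sources used here.

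H6pd (chromosome 4, 149979475 to 150009023, minus strand) oxidizes glucose 6-phosphate inside the endoplasmic reticulum, where the NADPH it makes serves the steroid reductase Hsd11b1. It was at 26.7 and 49 TPM (37.9 ± 15.8), close to its cytosolic counterpart. G6pdx over H6pd was 1.28 in replicate 1 and 0.965 in replicate 2, so their order was not the same in both libraries. Hsd11b1 itself was at 15.6 and 23.4 TPM, or 75.4 and 69.2 coding TPM. H6pd resembled Idh1 in that the quantifications favoured different starts. The first placed 76.2% and 60.5% of H6pd TPM on the downstream-start transcript H6pd-202, and the second placed 43.8% and 64.6% on H6pd-201, which starts upstream. These transcripts share 4472 bases and 2367 coding bases, and H6pd-201 has 2391 coding bases in all.

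In the folate pathway, the cytosolic Aldh1l1 oxidizes 10-formyltetrahydrofolate to carbon dioxide, and Mthfd1 links the folate-bound carbon units through an NADP-dependent dehydrogenase. Aldh1l1 (chromosome 6, 90486427 to 90600203, plus strand) was at 37.6 and 72.5 TPM (55.1 ± 24.7). Mthfd1 (chromosome 12, 76255298 to 76319803, plus strand) was at 11.5 and 21.3 TPM (16.4 ± 6.92). Aldh1l1 exceeded Mthfd1 by 3.27 and 3.41 times in the first quantification. Relative to its size this was the closest match between the libraries among the 8 level ratios computed there. The second quantification gave 3.63 and 4.89 times, so that closeness did not hold in it. Protein-coding transcripts held 69.6% and 87.2% of Aldh1l1 TPM in the first quantification, and 59% and 70.7% in the second. The rest lay on transcripts of the retained-intron, processed and nonsense-mediated decay types. Mthfd1-201 led for Mthfd1 in both libraries, with 49.7% and 79.4%. In replicate 1 another 46.9% lay on the coding transcript Mthfd1-206, to which the second quantification gave 0.0286%.

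Seen as shares of the members' summed TPM, which was 733 in replicate 1 and 1241 in replicate 2, the malic enzymes made up 51.3% and 47.3%. Me1 alone made up 49.9% and 45.8%. Isocitrate dehydrogenases made up 25% and 29.1%, with Idh1 alone at 20% and 25.1%. The cytosolic pentose phosphate enzymes held 13.4% and 12.1%, the folate enzymes 6.7% and 7.56%, and H6pd 3.64% and 3.95%. By compartment, the cytosolic enzymes held 90% and 90.5% and the mitochondrial ones 6.39% and 5.5%. The order of the routes was the same in both libraries and in both quantifications. These are shares of RNA level, summed over the coding and other transcripts of each gene, and say nothing of enzyme amount or flux.

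**Figure D4:**
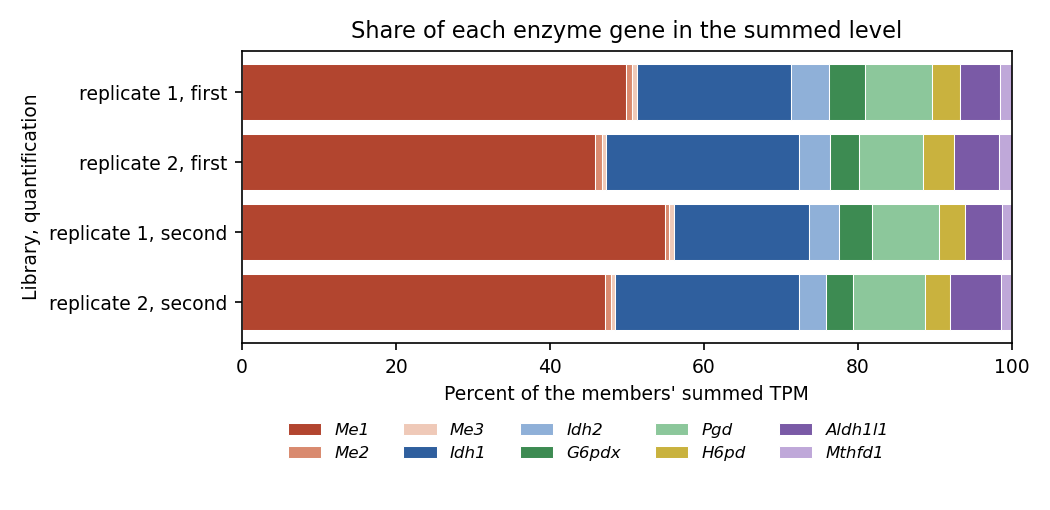
Percent of the members' summed TPM on each gene, as stacked bars for both libraries and both quantifications. Me1 (dark red) spans 49.9% and 45.8% in the first quantification, and Idh1 (dark blue) 20% and 25.1%.

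Between the libraries the members lay close together. The log2 ratio of replicate 2 over replicate 1, from counts scaled by TMM, ran from -0.36 (Me3) to 0.30 (Idh1), and the median was -0.01. None of the 10 members was 2-fold or more apart, and none 1.5-fold. Among all 11544 genes with a mean count of 100 or above, 1.31% differed by 2-fold or more and 5.81% by 1.5-fold or more, with a median ratio of 0.03. For 10 genes a count of 0 is near that background, so it sets the members apart in no way. Of the members 5 had a ratio above 0 and 5 below, whereas scaling by spike-ins put 7 above 0 and scaling by total counts put 10.

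Single ratios are given with exact 95% intervals that cover counting error only. Idh1 had 4795 counts in replicate 1 and 18999 in replicate 2, for a ratio of 0.30 (0.26 to 0.35). Me1 had 19091.36 and 53009.51 counts, for a ratio of -0.21 (-0.23 to -0.19), and G6pdx had a ratio of -0.27 (-0.36 to -0.18). These sit within the bulk of tested genes, of which 86.2% had a lower ratio than Idh1, 15.6% a lower one than Me1 and 11.5% a lower one than G6pdx. Aldh1l1 had a ratio of 0.19 (0.11 to 0.28) and H6pd of 0.10 (0.03 to 0.18). The intervals of Me2 (0.21), Idh2 (-0.04) and Mthfd1 (0.03) reached 0 or crossed it. That of Pgd (-0.07) ran from -0.14 to 0.00 after rounding. Me3, with the fewest counts, had the widest interval, -0.67 to -0.04. On the spike-in scale, which moved the median of tested genes to 0.16, the ratios of Pgd and Idh2 turned to 0.06 and 0.09. On total counts, where that median was 0.91, every member was higher in replicate 2, from 0.53 (Me3) to 1.19 (Idh1).

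**Figure D5:**
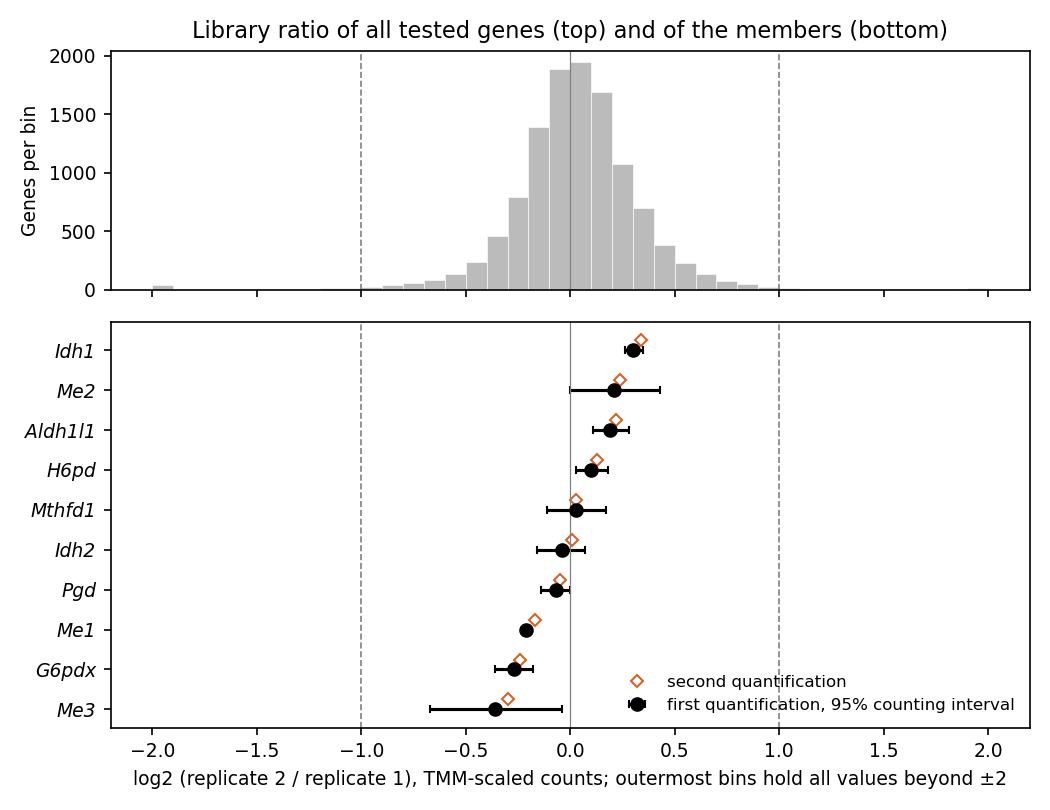
Distribution of the log2 ratio of replicate 2 over replicate 1 for all tested genes (top, genes per bin) and the ratio of each member (bottom; filled points with 95% counting intervals, open diamonds the second quantification). All members lie between -0.36 and 0.30, inside the dashed lines at 2-fold.

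Markers of other tissues and cell types were set beside the members. Liver markers were high in replicate 1 alone. Their summed TPM was 219 in replicate 1 and 3.92 in replicate 2, or 1058 and 11.6 in coding TPM. Those with enough counts, 8 of the 9, reached the threshold only through replicate 1, so their ratios under 0 add no support. Alb, serum albumin, had 4477 and 73 counts, Apoa1, an apolipoprotein, 377 and 5, and Gc, a vitamin D carrier, was at 0 counts in replicate 2. Aldh1l1, an enzyme abundant in liver, had a ratio of 0.19, and the part of liver RNA in the members was not tested. Adipocyte markers summed to 843 TPM in replicate 1 and 1090 in replicate 2, or 4077 and 3223 in coding TPM. Their median ratio was -0.32, against 0.03 over all tested genes, with 2 of 7 above 0. None of the 7 was at 0 counts. On total counts, where the median of all tested genes was 0.91, 6 of the 7 adipocyte markers were above 0. Under TMM Fabp4, a fatty acid carrier, had a ratio of -0.32 and Ucp1, the uncoupling protein of brown fat, -0.91. Lep, the hormone leptin, went the other way with 17 and 203 counts and a ratio of 1.87 (1.18 to 2.70), and was the only 1 of the 7 that was 2-fold apart. Under TMM 5 of the 10 members had a ratio above 0, Idh1 among them. The others, with Me1 and G6pdx among them, had the sign of the adipocyte median. The part of fat in the members was not tested. Under TMM the other marker lists had median ratios from -0.15 (erythroid) to 0.25 (glia).

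The enzymes and regulators around the members were described from 8 lists of 57 genes. Of these, 55 were at or above 1 TPM in both libraries. Among the 56 with enough counts 0 were 2-fold apart and 1 was 1.5-fold apart, with a median ratio of -0.04. That gene was Mthfd2, a mitochondrial folate dehydrogenase, with a ratio of -0.83. Among all 11544 tested genes 1.31% were 2-fold and 5.81% were 1.5-fold apart, with a median ratio of 0.03. The lists were not tested against that background.

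The other pentose phosphate enzymes were all detected. Transketolase Tkt (193 and 373 TPM) and transaldolase Taldo1 (132 and 224 TPM), which return pentoses to glycolysis, were above G6pdx and Pgd in both libraries. The lactonase Pgls, which acts between these oxidations, was at 30.5 and 50.3 TPM. The epimerase Rpe was at 17.5 and 30.8 TPM and the isomerase Rpia at 4.63 and 8.62 TPM. The median ratio of these 5 genes was 0.02. Of the NADP-making kinases, the cytosolic Nadk was at 61.9 and 101 TPM and the mitochondrial Nadk2 at 16.7 and 24.2 TPM.

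Of the 8 other enzymes, listed as NADP-linked mitochondrial or as folate enzymes, 7 were detected in both libraries. Glud1, glutamate dehydrogenase, was at 31.1 and 59.7 TPM. Nnt, the transhydrogenase of the inner mitochondrial membrane, was at 22.6 and 39.8 TPM when summed over its 2 gene identifiers, with a ratio of 0.10. Its reads were split unevenly between the identifiers, as 679.24 and 465.76 counts in replicate 1 and 3871.29 and 61.71 in replicate 2, so neither identifier alone gives its level. The cytosolic Shmt1, which loads carbon units onto folate, was at 17.3 and 30.1 TPM. Mthfd2l had a ratio of 0.12 (-0.30 to 0.56), the highest of its list, but -0.11 in the second quantification, and Aldh1l2, the mitochondrial relative of Aldh1l1, was under the threshold at 0.22 and 0.29 TPM. The NAD-linked counterparts all had a ratio under 0 with TMM (0 of 6 above), from Idh3g (-0.35) to Mdh1 (-0.01), with a median of -0.27. On the spike-in scale 1 of 6 was above 0 and on total counts 6 of 6. Gapdh was at 310 and 497 TPM, Mdh1 at 117 and 198 TPM, and Mdh2 at 97.4 and 134 TPM.

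Enzymes that supply the members' substrates included Acly, which makes acetyl-CoA and oxaloacetate from citrate, at 374 and 612 TPM, beside Me1 at 366 and 568 TPM. Pyruvate carboxylase Pcx was at 102 and 204 TPM. Hexokinase Hk1 had the highest ratio, 0.40. The list median was -0.02 over 10 genes.

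A list of 12 genes of steroid, sterol and fatty acid synthesis held NADPH-using enzymes and Fdx1, the ferredoxin that passes their electrons on. It summed to 5159 and 8570 TPM. The steroid hydroxylases Cyp21a1 (1266 and 2474 TPM), Cyp11a1 (1386 and 2335 TPM) and Cyp11b1 (943 and 1580 TPM) led. Their ratios ran from -0.50 (Fdx1) to 0.22 (Cyp21a1), with a median of -0.10. Among the genes of peroxide and disulfide reduction, catalase Cat was at 87.4 and 109 TPM. Thioredoxin reductase Txnrd1 was at 28.7 and 38.7 TPM and glutathione reductase Gsr at 21.1 and 29 TPM. In coding TPM, Cat was at 423 and 323, Txnrd1 at 139 and 114, and Gsr at 102 and 85.8.

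All 8 regulators were detected in both libraries. Srebf1, a transcription factor of lipid synthesis, was at 26.3 and 52.9 TPM. Nfe2l2, the antioxidant response factor, was at 22.4 and 34.8 TPM with a ratio of -0.10. Thrb, a thyroid hormone receptor, was at 16.2 and 41.2 TPM and had the highest ratio of the list, 0.39, while Mlxipl, a glucose-responsive factor, had the lowest, -0.46. The median over the list was 0.02.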

How the data were processed

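Total RNA of adrenal glands was sequenced in 2 libraries of 1 group, each from 300 ng of RNA with ERCC spike-ins, per the labels. Per the notes deposited beside the files, reads were quantified on mm10 with GENCODE M21. The sources used here do not name the programs. Expected counts deposited by the authors are estimated reads per gene and need not be whole, and TPM was deposited beside them with an interval for each gene. Per the file headers, the first transcript table also holds each transcript's percent of its gene. A second deposited transcript table, from another quantifier, holds estimated counts and TPM, which were summed per gene. Of 55536 genes 55450 had the same symbol in the transcript identifiers as in the annotation. Depth was 19366343 and 33728646 expected counts, and reads carry no molecular identifiers, so intervals cover counting error only.

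Gene levels are the deposited TPM, given with mean and SD over n = 2. Expected counts were rounded, scaled by TMM (edgeR 4.0.16, R 4.3.3) and given a prior of 1 count for log2 ratios. The ratios were tried on simulated counts, Poisson draws from a mean profile shared by both libraries but for some changed genes. Such draws lack the difference in coding share seen here, so they do not test the scaling between these libraries. Genes at a mean count of at least 100 entered the counts of genes 2-fold apart. Intervals are Clopper-Pearson at 95%. With 1 group of 2 libraries no p-value was computed. Alternatives covered scaling (DESeq2 1.42.0, total counts, spike-ins), the prior, thresholds, the second quantification and leaving out a library. Coding sequences were aligned with Biopython 1.88. Figures and tables used Python 3.11.15.

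The members and gene lists were chosen with earlier results of these data known. From lists of over 5 genes the 3 with the highest mean TPM and those with the lowest and highest ratio were named, and from marker lists the 2 highest. Gc, Lep and Hsd11b1 were named after their values were seen. Some genes that this rule selects are not reported here.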

Additional observations from a re-analysis of the deposited data

How the results depend on the processing

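All 10 members were detected at thresholds of 0.5 and 5 TPM, in the second quantification and in each library alone. The count of members 2-fold apart was 0 under every planned setting but total counts, where it was 3 (Idh1, Me2 and Aldh1l1, all higher in replicate 2), next to 4167 of all genes, or 36.1%. For all genes the count of 151 of 11544 (1.31%) became 671 (5.81%) at 1.5-fold. It became 938 of 16882 (5.56%) with a minimum mean count of 10. With no minimum it was 5009 of 55536 (9.02%), where genes of low count also entered. On the spike-in scale the split of all genes moved from 45 higher and 106 lower to 79 and 85. The second quantification gave mean shares of 52.2% for the malic enzymes, 3.37% for H6pd, 91.7% for the cytosol and 4.89% for mitochondria, against 49.3%, 3.8%, 90.3% and 5.95%. Without Me2 the cytosol held 91% and mitochondria 5.17%. The level ratios that moved by over 1 SD in the second quantification were Pgd over G6pdx (2.34), Me1 over Me2 (74.3), Me1 over Me3 (94.4) and Aldh1l1 over Mthfd1 (4.26), against 2.02, 59, 76.2 and 3.34. The cause was not tested. With 2 libraries, leaving out either cannot move a mean by over 1 SD, and G6pdx over H6pd was 0.965 without replicate 1 and 1.28 without replicate 2. Mean TPM in the second quantification was over 1.5 times that of the first for 7 of the 10 members, among them Pgd (156 against 83.3), Aldh1l1 (104 against 55.1) and Idh1 (377 against 229), while no mean coding TPM moved that far. The mean share on the leading transcript of the first quantification moved by over 1 SD for 8 of the 10 members. It fell to 6.6% from 86.9% for Idh1, to 27% from 68.3% for H6pd, to 68.1% from 94.2% for Me1, to 76.7% from 94.3% for Pgd, to 88.5% from 97.5% for G6pdx and to 50.2% from 62.9% for Aldh1l1. For Mthfd1 it rose to 86.2% from 64.6%, and for Me3 it was 52.3% against 53.6%. The fewer coding reads of replicate 1 limit the ratios of Me2 and Me3 most. No paired analysis was possible because the design holds 1 group.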
